A study of Mus musculus with 2 samples.

Results

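*Il13*, *Il6*, *Lif*, *Osm*, *Ccl3*, *Tnfrsf9* and *Calca* are 7 of the 11691 genes in a single-cell table of mouse explant cultures, and they were picked on values measured in these same cells. The values used were the share of cells with transcripts of each gene, how often the genes met in 1 cell, and the difference between the cultures among mast cells. What follows describes those values without a test, and it adds the spread over cells, the sex of the cells, the *Cpa3* level, other gene groups and the promoters. The cultures were Em-Ex, explants of intraembryonic tissue, and YS-Ex, explants of yolk sac. Both came from C57/BL6 concepti at E8.5 (Theiler stage 12) with 5 to 7 somite pairs. Both were grown for 9 to 10 days at an air-liquid interface, and the paper names day 10 for the sequenced cells. The medium held SCF, IL-3 and FLT3 ligand at 100 ng/ml each and 20% FCS, and both were sorted as CD31+CD45+c-Kit+CD41- cells. The same concepti were divided into both cultures, their tissue was pooled within each, and 1 droplet library was made from each, so the tissue of origin and the library cannot be told apart.

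A mast cell is a tissue granulocyte that stores proteases such as the carboxypeptidase encoded by *Cpa3* and carries the SCF receptor Kit and the high-affinity IgE receptor. When the IgE receptor or a cytokine receptor is engaged, it also makes cytokines anew, and their genes are switched on within hours through calcium, NFAT, NF-kB and AP-1. SCF and IL-3, both present in these cultures, are growth factors of the lineage. Interleukin 13 (*Il13*) acts on epithelium and macrophages in type-2 responses, interleukin 6 (*Il6*), LIF (*Lif*) and oncostatin M (*Osm*) are cytokines that signal through receptors containing gp130, and the chemokine MIP-1 alpha (*Ccl3*) attracts leukocytes. *Tnfrsf9* encodes 4-1BB (CD137), a TNF receptor family member induced on activated lymphocytes and mast cells, and *Calca* encodes both calcitonin and the neuropeptide alpha-CGRP, which this count per gene cannot separate.

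Positions are given on the mouse genome (GRCm38) with GENCODE M21 genes. *Lif* (chr11:4257557-4272514, plus strand) is the direct neighbour of *Osm* (chr11:4236420-4241026, plus strand), with 16530 bases between them. *Il13* (chr11:53631324-53634702, minus strand) lies 12654 bases from *Il4*, another type-2 cytokine gene. *Ccl3* (chr11:83647844-83649355, minus strand) lies 13228 bases from *Ccl4*, which encodes the related chemokine MIP-1 beta. *Il6* (chr5:30013114-30019981, plus strand) and *Calca* (chr7:114631478-114636357, minus strand) stand alone, with gaps of 38220 and 68505 bases to the nearer protein-coding gene. *Tnfrsf9* (chr4:150914562-150946102, plus strand) overlaps *Camta1* on the opposite strand, so its counts are less certain if strand was not used in counting.

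RefSeq promoters of the same genome (GRCm38.p6) were found for 6 of the 7 genes, all but *Osm*. The 250 bases before the start site are shown, 5′ to 3′ in the direction of the gene, for the cytokine genes *Il13*, *Il6* and *Lif*, which differ in the matches they hold, and for *Tnfrsf9* and *Calca*, the pair with the largest ratio of shares in both libraries. Capitals mark matches on either strand to the letters of the AP-1 site (TGANTCA), the NF-kB site, the NFAT core (GGAAA), a STAT site (TTCNNNGAA), the letters AGATAA read by GATA factors and TATAAA of the TATA box, and an NF-kB match always holds an NFAT core. They are chr11:53634703-53634952 (minus) for *Il13*, chr5:30012864-30013113 (plus) for *Il6*, chr11:4257318-4257567 (plus) for *Lif*, chr4:150919905-150920154 and chr4:150927749-150927998 (both plus) for 2 starts of *Tnfrsf9*, and chr7:114636358-114636607 (minus) for *Calca*.
Il13: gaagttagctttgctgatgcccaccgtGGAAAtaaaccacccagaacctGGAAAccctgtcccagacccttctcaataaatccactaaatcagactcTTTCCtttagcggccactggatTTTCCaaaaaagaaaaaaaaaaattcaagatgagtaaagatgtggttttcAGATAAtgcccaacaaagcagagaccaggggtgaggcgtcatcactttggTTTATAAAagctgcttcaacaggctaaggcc
Il6: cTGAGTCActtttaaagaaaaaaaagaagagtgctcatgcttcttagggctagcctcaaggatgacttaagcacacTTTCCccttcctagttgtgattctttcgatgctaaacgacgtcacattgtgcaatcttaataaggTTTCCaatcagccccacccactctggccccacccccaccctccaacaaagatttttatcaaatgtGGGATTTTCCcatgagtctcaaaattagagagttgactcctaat
Lif: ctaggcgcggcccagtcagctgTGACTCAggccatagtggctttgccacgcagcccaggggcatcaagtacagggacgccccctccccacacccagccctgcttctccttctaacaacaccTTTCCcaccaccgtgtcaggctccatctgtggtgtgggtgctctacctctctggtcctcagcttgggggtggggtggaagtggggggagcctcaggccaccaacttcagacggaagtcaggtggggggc
Tnfrsf9, start 1: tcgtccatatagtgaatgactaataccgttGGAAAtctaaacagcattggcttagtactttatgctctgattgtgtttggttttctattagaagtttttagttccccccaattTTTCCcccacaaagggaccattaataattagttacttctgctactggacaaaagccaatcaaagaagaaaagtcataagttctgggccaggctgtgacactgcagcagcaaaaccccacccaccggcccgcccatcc
Tnfrsf9, start 2: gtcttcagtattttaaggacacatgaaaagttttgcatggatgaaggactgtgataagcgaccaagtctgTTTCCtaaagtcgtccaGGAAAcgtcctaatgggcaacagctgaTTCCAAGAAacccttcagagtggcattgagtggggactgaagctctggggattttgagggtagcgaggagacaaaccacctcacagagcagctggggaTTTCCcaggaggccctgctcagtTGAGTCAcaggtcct
Calca: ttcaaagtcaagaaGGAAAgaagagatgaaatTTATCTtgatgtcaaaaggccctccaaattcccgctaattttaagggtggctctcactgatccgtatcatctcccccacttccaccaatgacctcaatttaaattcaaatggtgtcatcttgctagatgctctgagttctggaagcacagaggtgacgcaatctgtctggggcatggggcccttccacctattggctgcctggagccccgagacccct

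The *Il6* window held 1 match to NF-kB, whose letters stood in 0.356% of 32851 promoters of the same length, and 1 match to AP-1 (6.75% of promoters). *Lif* held 1 AP-1 match and *Tnfrsf9* 1 at its start 2, together with 1 STAT match (7.02%). *Il13* held 1 GATA match (9.99%) beside 2 overlapping TATA matches (12.4%) and 4 NFAT cores, and *Calca* held 1 GATA match and 1 NFAT core. The NFAT core stood in each of the printed windows, as it did in 55.6% of all promoters. A match is only a run of letters in this window.

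The libraries held 3071 Em-Ex and 2087 YS-Ex cells after the filter of the study's methods, and 35 barcodes occurred in both libraries as deposited. Cells with at least 40 *Cpa3* UMIs per 10000 (Cpa3-high below) were 2200 Em-Ex cells (71.6%) and 1946 YS-Ex cells (93.2%), with medians of 11246 and 11809 UMIs. A UMI stands for 1 captured transcript. All 14 mast cell markers had UMIs in both, summing to 50068 and 53279 UMIs per 1000000 (CPM), against 189 and 104 CPM for 12 macrophage markers. *Cpa3* is among the 14 and gave 13007 and 17404 CPM of the mast cell sums, so these are partly fixed by the limit. *Kit* was 2.92-fold higher in YS-Ex (340 against 993 CPM). With 1 library per culture no test was run, and every 95% interval below covers counting error only, not the spread between cultures.

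Among the interleukins and the gp130 cytokines, all 4 genes were in more Cpa3-high cells of YS-Ex than of Em-Ex. *Il13* had a UMI in 26.4% of Em-Ex cells (95% interval 24.6 to 28.3, 581 cells) and in 35.9% of YS-Ex cells (33.7 to 38, 698 cells). *Il6* had one in 31.3% (29.3 to 33.3) and 39.1% (36.9 to 41.3). *Lif*, which holds embryonic stem cells undifferentiated in culture, was in 12.1% of cells in Em-Ex (10.8 to 13.6) and 28.9% in YS-Ex (26.9 to 30.9). *Osm* was in 10.5% (9.21 to 11.8) and 21.7% (19.9 to 23.6). The intervals of the libraries lay apart for these genes, which were picked on this contrast. How often that held over all genes was not counted, so nothing is read from it.

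The chemokine gene was in fewer cells of YS-Ex, and the receptor and peptide genes did not differ beyond their intervals. *Ccl3* was in 15.7% of cells in Em-Ex (14.2 to 17.3) and 11.5% in YS-Ex (10.1 to 13). *Tnfrsf9* was in 10.4% (9.16 to 11.8) and 8.74% (7.52 to 10.1), and *Calca* in 4.59% (3.75 to 5.55) and 5.19% (4.25 to 6.27), so that the intervals of both genes overlapped between libraries. With each cell thinned to 2000 UMIs, the shares in Em-Ex and YS-Ex were 3.41% and 7.86% for *Lif*, 3.82% and 7.97% for *Osm* and 7.68% and 10.4% for *Il13*, with intervals that still did not overlap. Those of *Il6* (9.21 to 11.8 and 11.7 to 14.7) and *Ccl3* (6.22 to 8.44 and 4.48 to 6.55) overlapped at this equal depth, at 10.5% and 13.2% and at 7.27% and 5.45%. *Tnfrsf9* stood at 4.77% and 3.39%, also with overlapping intervals.

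**Figure D1:**
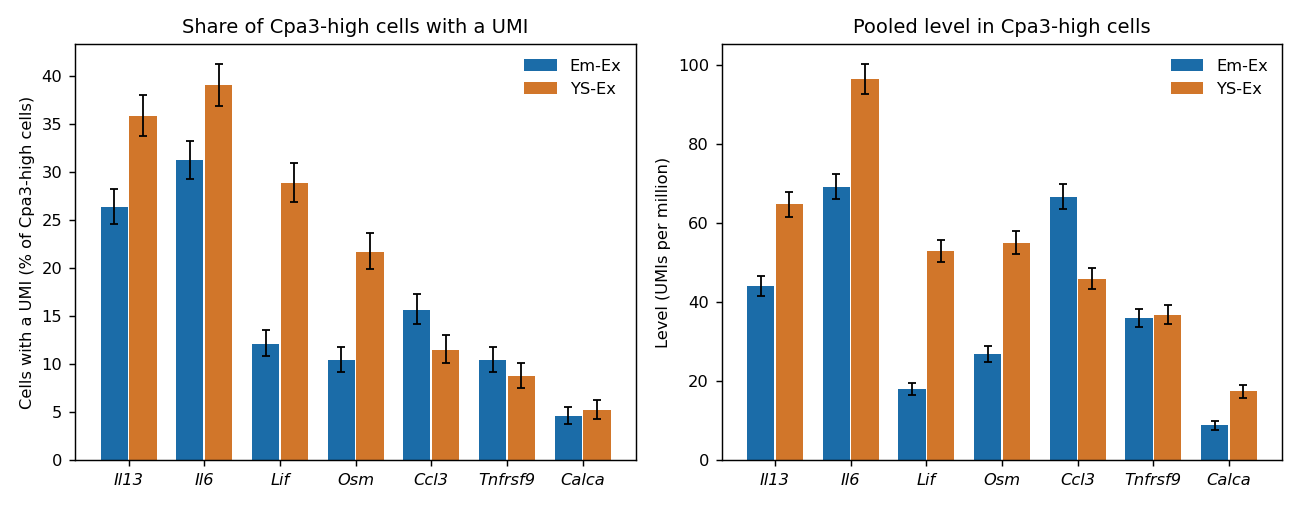
Share of Cpa3-high cells with a UMI (left, percent) and pooled level (right, CPM) of the 7 genes in Em-Ex (2200 cells) and YS-Ex (1946 cells), with bars for the values and lines for the 95% counting intervals. *Il13*, *Il6*, *Lif* and *Osm* stand higher in YS-Ex on both scales, *Ccl3* stands lower, and *Tnfrsf9* has overlapping intervals on both.

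By pooled level in Cpa3-high cells, the 4 cytokine genes were higher and *Ccl3* lower in YS-Ex, as by share. *Lif* rested on 491 UMIs in Em-Ex (17.9 CPM) and 1335 in YS-Ex (52.9 CPM), 2.95-fold higher in YS-Ex (95% interval 2.66 to 3.28). *Osm* rested on 734 and 1389 UMIs (26.8 and 55.0 CPM), 2.05-fold higher (1.88 to 2.25). *Il13* was at 43.9 and 64.7 CPM (1.47-fold, 1.37 to 1.59) and *Il6* at 69.1 and 96.5 CPM (1.4-fold, 1.31 to 1.48). *Ccl3* was at 66.7 and 45.9 CPM, with YS-Ex at 0.688 of Em-Ex (0.638 to 0.741). *Tnfrsf9* was at 36 and 36.8 CPM, a ratio of 1.02 (0.932 to 1.12).

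*Calca* gave 240 UMIs in Em-Ex (8.77 CPM) and 438 in YS-Ex (17.4 CPM), a ratio of 1.98 (1.69 to 2.33), but a single YS-Ex cell held 144 of these UMIs, 32.9% of the gene's total. Without the cell richest in *Calca* of each library, the log2 ratio was 0.53 in place of 0.98, and with a limit of 80 *Cpa3* UMIs per 10000 it was -0.02. Thus 2 of the 7 genes, *Lif* and *Osm*, were 2-fold or more higher in YS-Ex, where 11.3% of the 8618 genes with at least 5 CPM in 1 library were, and 0 of 7 were 2-fold or more lower, against 1.47% of genes. The median log2 ratio was 0.56 over the 7 genes and 0.07 over all 8618. These are the contrast on which the genes were picked, so nothing is read from the counts. *Osm* dropped under 2-fold with the limit of 80 (log2 ratio 0.86), after thinning (0.90), without the 5% deepest cells (0.87), without the upper 25% by cell cycle UMIs (0.72), as a mean over cells (0.72) and with a mitochondrial limit of 10% (0.98), and in male cells it was lower in YS-Ex (-0.47).

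The UMIs were spread unevenly over cells, and the top 10% of positive cells held a larger share of them for *Ccl3*, *Tnfrsf9* and *Calca* than for the other 4 genes. In *Lif*-positive cells the median was 1 UMI in Em-Ex and 2 in YS-Ex, the highest cell held 8 and 13 UMIs, and the top 10% held 27.5% and 29.6% of the UMIs. *Il13* was much alike, with at most 14 and 22 UMIs in a cell and 31.5% and 32.8% in the top 10%. *Il6* reached 27 and 45 UMIs in a cell, with 36.7% and 34.3% in the top 10%. *Osm* reached 18 and 27 UMIs, with 36.6% and 34.8% in the top 10%. Of the *Osm*-positive cells, 23.9% and 23.6% held 5 or more UMIs, much as for *Tnfrsf9* (23.1% and 24.1%).

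In contrast, the top 10% of cells held 45.8% of *Ccl3* UMIs in both libraries, with up to 63 UMIs in an Em-Ex cell and 38 in a YS-Ex cell. For *Tnfrsf9* the top 10% held 47.5% in Em-Ex and 57.0% in YS-Ex. The richest cells had 59 and 101 *Tnfrsf9* UMIs, and the latter cell also had 23 *Calca* UMIs. For *Calca* the top 10% held 47.5% and 61.4%, and the richest cells had 20 and 144 UMIs. The YS-Ex cell with 144 had 10625 UMIs in all, 0 UMIs of *Tnfrsf9*, *Il13*, *Il6* and *Lif*, 2 of *Osm* and 4 of *Ccl3*. Its total lies below the median of YS-Ex Cpa3-high cells.

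**Figure D2:**
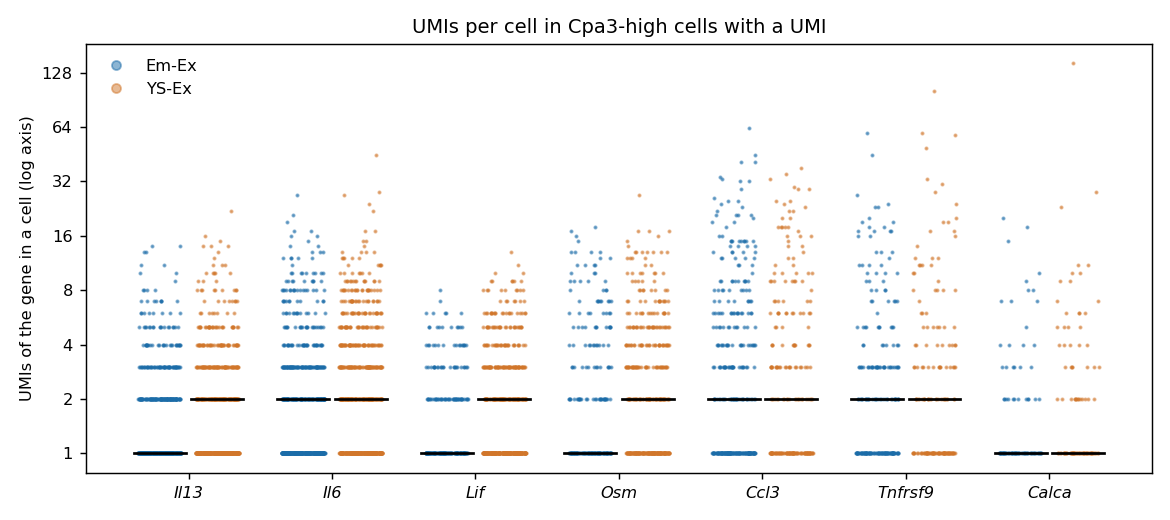
UMIs of each gene in every Cpa3-high cell with at least 1 UMI of it (log axis), Em-Ex and YS-Ex side by side, with 1 point per cell, spread sideways at random, and a black line at the median. Medians are 1 or 2 UMIs for all 7 genes, while *Ccl3*, *Tnfrsf9* and *Calca* have thin upper tails that reach 63, 101 and 144 UMIs.

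Sex split the library ratios of several of these genes. The concepti of a pool were of both sexes, and a cell was called female by a UMI of *Xist* with none of *Ddx3y*, *Eif2s3y*, *Kdm5d* and *Uty*, or male by the reverse. Among Cpa3-high cells, 1605 Em-Ex cells (73.0%) and 1094 YS-Ex cells (56.2%) were female, and 372 (16.9%) and 608 (31.2%) male. Cells of 1 sex stem from only some of the concepti of a pool, so sex and conceptus cannot be told apart.

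*Osm* was at 25 CPM in female and 34.7 CPM in male Em-Ex cells, and at 75.6 CPM in female and 25.1 CPM in male YS-Ex cells. The female YS-Ex cells thus stood above the other 3 groups. YS-Ex was 3.02-fold above Em-Ex in female cells (2.71 to 3.36) and at 0.723 of Em-Ex in male cells (0.586 to 0.892). By share, *Osm* was in 9.53% and 11.8% of female and male Em-Ex cells, and in 27.6% and 13.7% of female and male YS-Ex cells, so that by share male cells did not turn and their intervals overlapped (8.73 to 15.6 and 11 to 16.6). Median depth was 11843 UMIs in female and 11949 UMIs in male YS-Ex cells.

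*Il6* followed the same pattern by level. It was at 61.3 CPM in female and 89.3 CPM in male Em-Ex cells, and at 117 CPM in female and 64.1 CPM in male YS-Ex cells. YS-Ex was 1.92-fold above Em-Ex in female cells (1.78 to 2.07) and at 0.717 of it in male cells (0.630 to 0.817). By share *Il6* was in 28.4% and 43.4% of female cells and in 39.8% and 34.9% of male cells, the latter with overlapping intervals (34.8 to 45 and 31.1 to 38.8). The level of *Tnfrsf9* turned direction as well, with 36.4 and 46.9 CPM in female Em-Ex and YS-Ex cells (ratio 1.29, 1.16 to 1.43) and 34.1 and 27.3 CPM in male cells (0.802, 0.653 to 0.988). Without the cell richest in *Tnfrsf9* the female YS-Ex level was 39.9 CPM. By share it did not turn, at 10.0% and 9.23% of female and 10.8% and 9.21% of male cells, with overlapping intervals in both sexes. The intervals of the ratios of levels in female and male cells lay apart for these 3 genes, and also for *Lif*, *Ccl3* and *Calca*. How often that held over all genes was not counted, so nothing is read from it. The difference between the sexes was not tested.

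*Lif* and *Il13* kept their direction in both sexes. *Lif* was 3.58-fold higher in YS-Ex in female cells (17.5 and 62.6 CPM) and 2.35-fold higher in male cells (16.3 and 38.3 CPM). *Il13* was 1.68-fold higher in female cells (44.6 and 74.9 CPM) and 1.46-fold higher in male cells (37.1 and 54.1 CPM). *Ccl3* was at 62.2 and 55.8 CPM in female cells of Em-Ex and YS-Ex, a ratio of 0.897, and at 95.4 and 31.9 CPM in male cells, a ratio of 0.334. *Calca* was at 8.69 and 10.6 CPM in female cells (ratio 1.22, 0.978 to 1.53) and at 10.8 and 34.7 CPM in male cells, where the cell with 144 UMIs was male.

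In female cells 2 of the 7 genes (*Lif* and *Osm*) were 2-fold or more higher in YS-Ex and 0 lower, against 11.5% and 1.62% of genes. In male cells 2 (*Lif* and *Calca*) were higher and 1 (*Ccl3*) lower, against 12.6% and 2.62% of genes. The *Calca* call rests on the cell of 144 UMIs, without which the male YS-Ex level was 16.6 CPM against 10.8 CPM in Em-Ex, under 2-fold. Within a library, 2-fold differences between the sexes were rare over all genes. In YS-Ex 0.244% of genes were 2-fold or more higher in female cells, and *Osm* was the 1 of the 7 among them (3.02-fold, 2.59 to 3.53). In the other direction stood 0.163% of genes, with *Calca* the 1 of the 7. Without the cell of 144 UMIs its female to male ratio moved from 0.306 to 0.639, which no longer passes 2-fold. In Em-Ex none of the 7 genes differed by 2-fold, against 0.22% of genes higher and 0.208% lower in female cells. The hypoxia, S phase and G2/M lists stood at 1554, 480 and 620 CPM in female and at 1449, 582 and 594 CPM in male YS-Ex cells, and the mast cell list at 53798 and 51739 CPM. The erythroid list stood at 240 CPM in female and 176 CPM in male YS-Ex cells, the macrophage list at 93.9 and 118 CPM and the basophil list at 343 and 398 CPM. Their part in the *Osm* and *Il6* values was not tested.

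**Figure D3:**
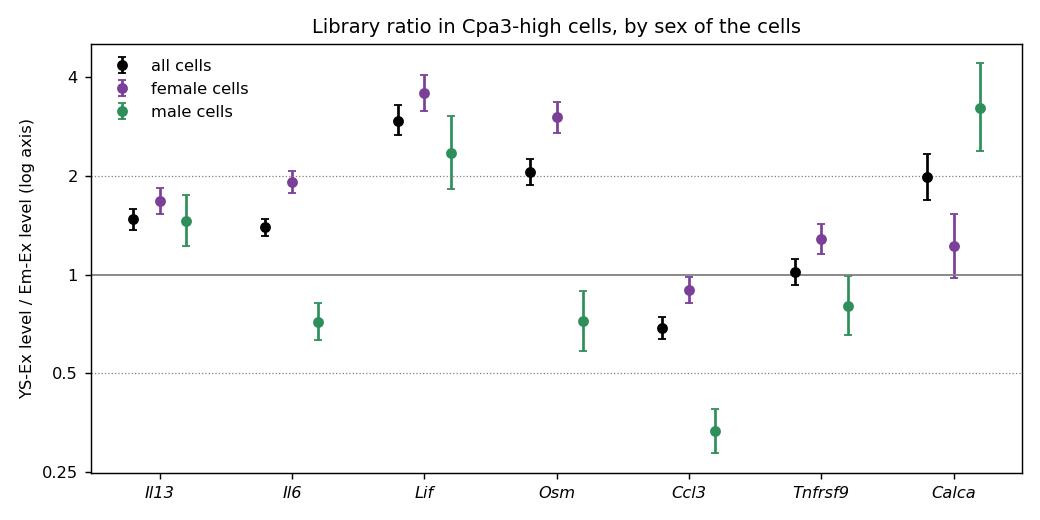
Ratio of the YS-Ex to the Em-Ex level in Cpa3-high cells (log axis, dotted lines at 2-fold) for all cells, female cells and male cells, with points for the ratios and lines for the 95% counting intervals. *Il6*, *Osm* and *Tnfrsf9* lie above 1 in female cells (1.92, 3.02 and 1.29) and below 1 in male cells (0.717, 0.723 and 0.802).

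The genes met in 1 cell more often in YS-Ex over all cells and in female cells, with little difference in male cells. At least 2 of the 7 had UMIs in 31.0% of Em-Ex Cpa3-high cells (29.1 to 33.0) and 44.4% of YS-Ex ones (42.2 to 46.6). At least 3 were found in 225 Em-Ex cells (10.2%) and 422 YS-Ex cells (21.7%), none in 33.5% and 25.1%, and the most in a cell were 5 genes in 10 Em-Ex cells and 6 genes in 5 YS-Ex cells. Cells with more of the genes were deeper, with medians of 12673 and 15368 UMIs for 3 or more against 9898 and 9516 UMIs for none. Thinned to 2000 UMIs, 7.05% and 9.61% of cells showed 2 or more. At this depth 3 or more were in 1.27% (0.847 to 1.83) and 1.90% (1.34 to 2.61), with overlapping intervals. Unthinned, the share with 2 or more was 28.8% and 51.7% in female cells and 34.9% and 36.2% in male cells.

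For this reason pairs were compared after weighting the cells without 1 gene to the depth of the cells with it. The pair *Calca* and *Tnfrsf9* stood out in size. In Em-Ex, 26 of 101 *Calca*-positive cells had a *Tnfrsf9* UMI (25.7%, 17.6 to 35.4), against 10.1% of *Calca*-negative cells at like depth, a ratio of 2.56. In YS-Ex it was 36 of 101 cells (35.6%, 26.4 to 45.8) against 7.40%, a ratio of 4.82. The excess was present in both sexes, with ratios of 2.84 and 3.06 in female and male Em-Ex cells and 5.34 and 3.98 in female and male YS-Ex cells, the male values from 20 and 38 *Calca*-positive cells.

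*Tnfrsf9* also met *Osm* and *Ccl3*. *Osm* was in 20.1% of *Tnfrsf9*-positive Em-Ex cells against 9.57% at like depth (ratio 2.10), and in 38.2% against 21.7% in YS-Ex (1.76). *Ccl3* was in 20.1% against 15% in Em-Ex and 20.0% against 10.6% in YS-Ex. With *Il13* the ratio was 0.927 and 0.959, so *Tnfrsf9*-positive cells held *Il13* about as often as the others. *Lif* was in 6.93% of *Calca*-positive cells against 12.7% of the others in Em-Ex, and in 19.8% against 29.4% in YS-Ex, the latter the only pair in either library with an interval (12.5 to 28.9) wholly below the weighted share.

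Among *Il13*, *Il6*, *Lif* and *Osm*, the 6 pairs had ratios of 1.05 to 1.65 in Em-Ex and 1.17 to 1.61 in YS-Ex. *Lif*-positive YS-Ex cells held *Il13* in 52.7% against 32.7% and *Il6* in 54.6% against 37.0%. The pair *Il13* and *Il6* was near 1 in Em-Ex (32.9% against 31.4%). Over all 21 pairs, ratios of 2 or more were reached by 2 pairs in Em-Ex and 1 in YS-Ex. Pairings of the 7 genes with 8340 (Em-Ex) and 8298 (YS-Ex) other genes, limited by the share of cells they were in, did so in 1.56% and 1.63%. There the member was always the first gene, while in the 21 pairs the rarer gene was. The members were picked in view of such meetings, so the counts are a description.

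**Figure D4:**
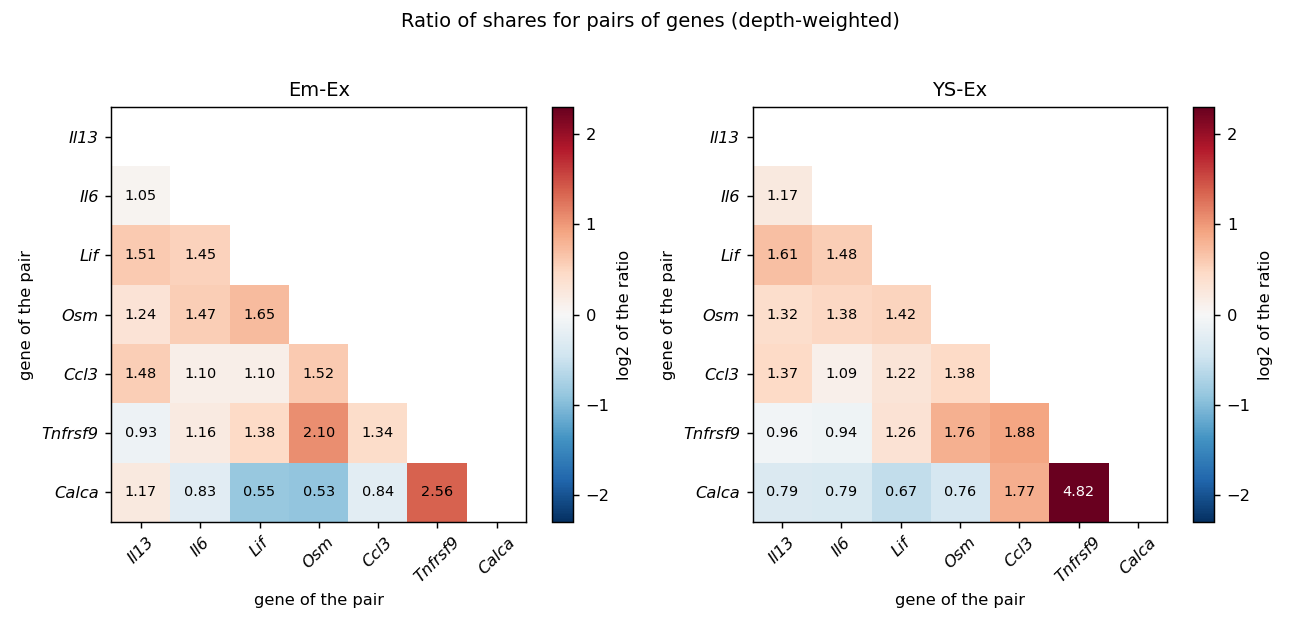
Depth-weighted ratio of shares for the 21 pairs of genes in Em-Ex (left) and YS-Ex (right) Cpa3-high cells, with the number in each square the share of cells with the second gene among cells with the first over that among cells without it, and color for its log2. The first gene of a pair is the one that comes first in the order *Calca*, *Tnfrsf9*, *Ccl3*, *Osm*, *Lif*, *Il13*, *Il6*. *Calca* with *Tnfrsf9* is at 2.56 and 4.82, and *Calca* with *Lif* at 0.545 and 0.674.

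The shares of some of the genes also differed by *Cpa3* level. *Lif* was in 5.33% (Em-Ex) and 7.84% (YS-Ex) of the cells with 40 to 50 *Cpa3* UMIs per 10000, and in 19.4% and 34.6% of cells with 160 or more. *Il13* went from 19.3% and 21.6% to 35.5% and 42.3% over the same classes, and *Il6* from 28.0% and 29.4% to 34.6% and 41.2%. *Tnfrsf9* ran the other way, from 15.3% and 15.7% to 8.61% and 7.59%. *Calca* was at 4.67% and 9.80% against 4.75% and 4.45%. At 160 or more, *Cpa3* was alike in Em-Ex and YS-Ex at 23720 and 24390 CPM. There *Lif* was at 33.8 and 68.3 CPM, and *Osm* at 31.5 and 63.9 CPM. *Il13* and *Il6* lay closer between the libraries, at 71.0 and 84.2 CPM and at 91.6 and 108 CPM. *Ccl3* was at 93.0 and 44.4 CPM, *Tnfrsf9* at 30.4 and 28.5 CPM and *Calca* at 5.93 and 8.61 CPM. The part of the *Cpa3* level in the library ratios was not tested.

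Just below the limit, cells with 30 to 40 *Cpa3* UMIs per 10000 (134 Em-Ex and 36 YS-Ex cells) were close to those just above it (150 and 51 cells) for *Il13*, with 20.1% and 19.4%. *Tnfrsf9* was in 29.9% of these Em-Ex cells (22.3 to 38.4) and in 22.2% of the YS-Ex ones (10.1 to 39.2). With under 10 *Cpa3* UMIs per 10000, *Tnfrsf9* was in 3.55% and *Il13* in 2.3% of 564 Em-Ex cells. *Tnfrsf9* thus had its larger shares in Em-Ex at intermediate *Cpa3*.

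Free RNA in the droplets was gauged by cells under the *Cpa3* limit with at least 10 UMIs per 10000 of *Mpo*, a neutrophil granule gene. In 84 such Em-Ex cells with a median of 25745 UMIs, *Il13*, *Il6* and *Lif* were each in 1 cell (1.19%) and *Calca* in 0 cells. For *Calca* this allows a share of up to 3.57% if 0 is taken as 3 counts. The interval used for the other shares reaches 4.30%, which overlaps that of Cpa3-high Em-Ex cells (3.75 to 5.55). *Osm* was in 7.14% (5.23 CPM) and *Tnfrsf9* in 3.57% (1.43 CPM), against 26.8 and 36 CPM in Cpa3-high Em-Ex cells of lower depth. *Ccl3* was in 31.0% of these cells, more than in Cpa3-high cells, so by share it did not pass this background. Its level was 29.5 CPM there against 66.7 CPM in Cpa3-high Em-Ex cells, and thinned shares were 4.76% (1.31 to 11.7) against 7.27%. Whether the *Ccl3* UMIs of *Mpo* cells were their own or free RNA was not tested. YS-Ex had 8 such cells, too few to compare.

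Under the *Cpa3* limit, *Ccl3* was high in cells with macrophage markers, which also held markers of mast cells and other cells. Cells low in *Cpa3* and *Mpo* with at least 10 UMIs of the 12 macrophage markers per 10000, a limit set after the values were seen, were 57 in Em-Ex, of which 27 (47.4%) had a *Ccl3* UMI. In YS-Ex they were 15, of which 11 (73.3%) had one, and the levels were 305 and 378 CPM. *Il13* was in 1 cell of each. The macrophage list was at 8200 and 9055 CPM in these cells, and the neutrophil progenitor list at 3436 and 33461 CPM, nearly all of it *S100a8* and *S100a9*, with *Ctsg* at 0 in both. The mast cell list was at 7781 and 3997 CPM, against 1275 CPM in the Em-Ex *Mpo* cells, and the megakaryocyte list at 835 and 5024 CPM, so the cells are named by the rule and not as a cell type. Within Cpa3-high cells, the macrophage list summed to 301 CPM in *Ccl3*-positive cells against 189 CPM over all of Em-Ex, and to 129 against 104 CPM in YS-Ex. Its part in the *Ccl3* values was not tested.

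**Figure D5:**
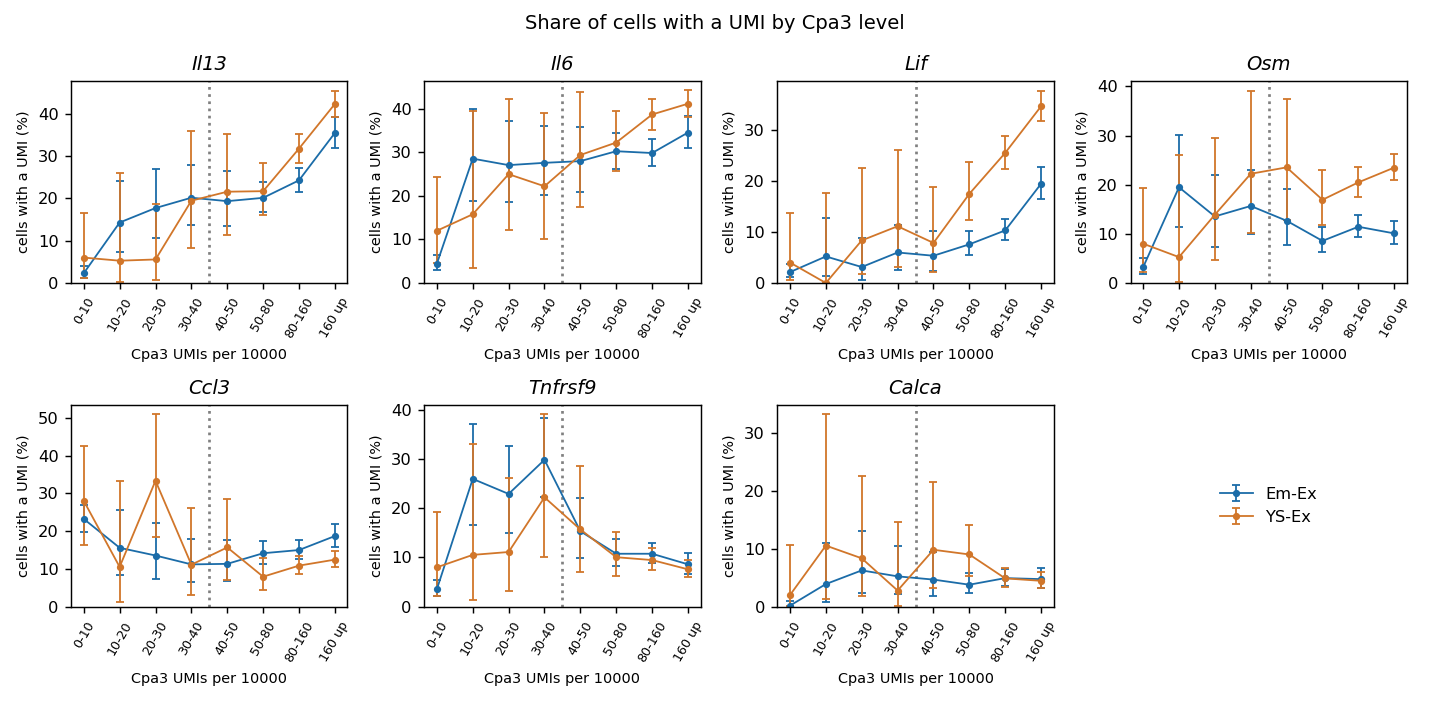
Share of cells with a UMI of each gene (percent, with 95% counting intervals) by *Cpa3* UMIs per 10000 in Em-Ex and YS-Ex, with the dotted line at the limit of 40 for Cpa3-high cells. *Lif* and *Il13* climb to the right (*Lif* to 19.4% and 34.6%), while *Tnfrsf9* is highest in Em-Ex at 30 to 40 (29.9%).

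*Tnfrsf9* was higher in cells rich in UMIs of the hypoxia list in both libraries, and *Calca* was in more of them in YS-Ex. Most UMIs of this list were of *Ldha*, so the class mainly follows this 1 gene. In cells with 3 or more of the 7 genes, *Ldha* gave 2009 of 2175 CPM in Em-Ex and 1485 of 1698 CPM in YS-Ex. In the 267 YS-Ex cells in the upper 25% by hypoxia list UMIs per 10000 (set over both libraries together), *Tnfrsf9* was in 24.3% (19.3 to 29.9) against 6.25% (5.14 to 7.52) of the other cells, at 134 and 18.9 CPM. After thinning, the shares were 13.9% and 1.73%. *Calca* was in 13.5% against 3.87%. In Em-Ex the shares were 11.7% and 9.72% for *Tnfrsf9* and 6.10% and 3.78% for *Calca*, with overlapping intervals for *Tnfrsf9* at 9.50 to 14.2 and 8.23 to 11.4. By level, *Tnfrsf9* stood there at 49.9 CPM (46 to 54.1) against 25.6 CPM (23.2 to 28.2). In the upper 25% by cell cycle UMIs per 10000, *Tnfrsf9* was lower than in the other cells, at 10.5 against 53.6 CPM in Em-Ex and 3.29 against 48.1 CPM in YS-Ex. *Il6* differed less, with thinned shares of 10.8% and 10.3% in Em-Ex and 15% and 12.7% in YS-Ex. The part of the hypoxia list and of the cell cycle in these values was not tested.

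The genes most alike in level over Cpa3-high cells were taken by Pearson correlation of log-normalized levels, using the smaller r of the libraries among 10431 genes. All r were weak, cells of 1 library share its depth and free RNA, and the values in Em-Ex and YS-Ex cells are a description. *Il13* came closest to *Pim1*, a kinase gene induced through STAT5 (0.21 and 0.23), then *Cpa3* and *Cpb1*. *Il6* came closest to *Nr4a1*, an immediate-early nuclear receptor gene (0.16 and 0.16), then *Lif* and *Runx1*. *Lif* came closest to *Cpb1* (0.22 and 0.20), *Rapsn* and *Runx1*, and *Osm* to *Dnah7a* (0.12 and 0.12), *Enah* and *Il6*.

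*Ccl3* was most like *Lgals3* (0.19 and 0.16), encoding galectin-3, the chemokine gene *Ccl9* and *Lilrb4a*. *Tnfrsf9* was most like *Bnip3* (0.20 and 0.19), a mitophagy gene induced in hypoxia, *Rcn3* and *Fam132a*. For *Calca* the first of 10431 genes was *Tnfrsf9* (0.17 and 0.36), ahead of *B2m* and *Acer2*.

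Cells with 3 or more of the 7 genes were set against cells with none, at like depth, to see which other genes they held. The 7 genes chose the cells, and the genes ranked had to reach 20 CPM in the cells with 3 or more in both libraries. A gene could thus pass through the group where it is high, so the order and the count are a description from which nothing is read. Of 3989 genes that passed, 18 (0.451%) were 2-fold or more higher in both libraries.

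Among the 10 genes first in that order, by the smaller fold of the libraries, were 2 globin genes, *Hba-a1* (3.21-fold) and *Hbb-bt* (2.75-fold), and *Bnip3* (3.10-fold). *G0s2* stood at 2.70-fold and *Eva1b* at 2.68-fold. The chemokine gene *Ccl9* stood at 2.66-fold, the chemokine receptor gene *Ccr2* at 2.55-fold, the early growth response gene *Egr2* at 2.46-fold, *Ebi3*, which encodes a subunit of IL-27 and IL-35, at 2.39-fold and *Neb* at 2.33-fold. *Ccr2* was at 203.5 against 73.6 CPM in Em-Ex and 411 against 161 CPM in YS-Ex.

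Summed without weighting for depth, the S phase list was at 525 CPM in cells with 3 or more of the genes and 704 CPM in cells with none in Em-Ex, and at 433 against 541 CPM in YS-Ex. The G2/M list was at 458 against 802 CPM in Em-Ex and at 575 against 595 CPM in YS-Ex. At like depth, every gene of both lists was lower in the cells with 3 or more genes in both libraries. In YS-Ex the folds then ran from 0.350 (*Ung*) to 0.656 (*Slbp*) for S phase and from 0.293 (*Ccnb1*) to 0.920 (*Aurka*) for G2/M. Globin is an erythroid product, and the whole erythroid list of 7 genes summed to 193 CPM in cells with 3 or more genes and 68.1 CPM in cells with none in Em-Ex, and to 397 and 108 CPM in YS-Ex. In cells low in *Cpa3* the list was at 2135 and 1879 CPM. The part of the erythroid and cell cycle lists in these values was not tested.

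Among the other cytokine and chemokine genes of mast cells, more were lower than higher in YS-Ex. Of 36 listed genes, 18 had at least 5 CPM, of which 17 had UMIs in both libraries. Of these 17, 1 was 2-fold or more higher in YS-Ex while 5 were lower, against 11.3% and 1.47% of all genes, where 7 of 972 and 3 of 127 calls were of genes listed at 0 in 1 library. The median log2 ratio of the 17 was -0.65, against 0.07. *Vegfa*, the angiogenic growth factor gene, was at 3.29 and 14.7 CPM (4.46-fold, 3.53 to 5.68), and *Csf1*, the macrophage growth factor gene, at 33.5 and 58.5 CPM. The chemokine genes *Ccl1* (25 and 4.04 CPM), *Ccl2* (21.3 and 7.25 CPM), *Ccl7* (10.4 and 3.92 CPM) and *Ccl4* (9.46 and 2.93 CPM) stood lower in YS-Ex, as did *Tnfsf14* (15.1 and 5.19 CPM). *Cxcl2* was at 10.9 CPM in Em-Ex but its YS-Ex value is listed as 0, as it is for any gene seen in under 30 barcodes of a library, so no fold is given and it is not counted. In the same cells the summed list of 12 macrophage markers was at 189 and 104 CPM and that of 3 basophil markers at 574 and 372 CPM, and their part in these values was not tested.

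Of the neighbours of the 7 genes, those with values that are not among the 7 are given here. *Il4*, next to *Il13*, was in 77.8% of Em-Ex and 84.8% of YS-Ex cells, at 151 and 188 CPM (1.25-fold, 1.19 to 1.30), and *Rad50* on the other side of *Il13* was at 32.3 and 83.8 CPM (2.60-fold). *Ccl4* and *Ccl6*, on the sides of *Ccl3*, were at 0.310 and 0.565 of Em-Ex in YS-Ex, both lower as *Ccl3* was. *Dnajb6* and *Tyms*, around *Il6*, were at 1.10 and 0.630 of Em-Ex. *Park7*, next to *Tnfrsf9*, was at 0.893, and the overlapping *Camta1* at 1.02 (0.916 to 1.14), no different beyond counting error.

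Of 17 listed receptor and ligand genes, 11 were in the table and 5 had at least 5 CPM, 1 of them 2-fold or more higher in YS-Ex and 0 lower, against 11.3% and 1.47% of all genes, and nothing is read from 1 of 5. *Il4ra*, a chain of the IL-13 receptor, was in 49.4% and 51.8% of cells, at 59.6 and 64.9 CPM, and *Il2rg* at 114 and 164 CPM. *Ccr1*, a receptor of MIP-1 alpha, was at 54.8 and 32 CPM. *Il6ra* and *Il6st*, encoding the IL-6 receptor and gp130, were at 0.950 and 0.357 CPM and at 0.657 and 2.65 CPM. *Tnfsf9*, the ligand of 4-1BB, was at 14.5 and 11.8 CPM. *Calcrl*, which forms the CGRP receptor with *Ramp1*, was the 1 gene past 2-fold, at 6.28 and 15.3 CPM (2.44-fold, 2.03 to 2.94).

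Of 5 other TNF receptor family genes with at least 5 CPM, 0 passed 2-fold in either direction. *Tnfrsf13b* (TACI) was at 46.7 and 60.3 CPM and *Cd27* at 6.83 and 8.36 CPM, while *Tnfrsf12a* was at 5.08 and 2.89 CPM and *Tnfrsf21* at 23.2 and 21.1 CPM. Of 19 NF-kB and NFAT response genes, 2 were 2-fold or more higher in YS-Ex and 0 lower, a share near that over all genes (11.3% higher), with a median log2 ratio of 0.28. They were *Rel*, a NF-kB subunit gene (20.2 and 51.5 CPM), and *Egr3* (3.54 and 16.4 CPM), while *Nfkbia*, the gene of the NF-kB inhibitor, was at 0.549 of Em-Ex and *Icam1* at 10.6 and 7.84 CPM. Of 13 genes of STAT signaling and feedback, *Stat3* (12.8 and 27.8 CPM) and *Jak2* (8.07 and 16.8 CPM) were past 2-fold and 0 were lower, again near the share over all genes, with a median of 0.46 against 0.07. *Pim3* was at 20.6 and 12.9 CPM and *Junb* at 1206 and 1110 CPM.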

How the data were processed

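Sorted CD31+CD45+c-Kit+CD41- cells of pooled Em-Ex and of pooled YS-Ex explants were measured with droplet single-cell RNA sequencing, with 1 library each. The authors deposited raw UMI counts per gene and barcode, without normalization, in 1 table of 11691 genes and 6541 barcodes. The submitters' processing notes name Cell Ranger 2.0.1, bcl2fastq 2.19.1.403 and the mm10 build, while the annotation and strand setting are not given in the sources used here. Within each library, a gene above 0 had UMIs in at least 30 barcodes, a filter that is not stated.

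The 7 genes, the gene lists and the limit of 40 *Cpa3* UMIs per 10000 were chosen with earlier results of these data known. Barcodes with 1000 to 5000 genes and at most 5% mitochondrial UMIs (13 genes) were kept, and Cpa3-high cells held 4225 to 35429 UMIs in Em-Ex and 3353 to 33983 in YS-Ex. The limit of 5000 genes was meant by the study also to remove doublets, and no doublet caller was run. UMIs were summed over cells per 1000000 (CPM), with exact Poisson intervals for CPM, Clopper-Pearson for shares and conditional binomial for ratios, all at 95%. Log2 ratios used a prior count of 0.5, and pairs were weighted over 10 classes of UMIs per cell. A count of 0 was taken to allow 3 counts. The intervals of a pair cover the share in positive cells only. Of each list the genes named were the 2 highest and 2 lowest by log2 ratio and those past 2-fold (up to 6), and beyond these the neighbours, the 10 leading genes of cells with 3 or more members (of those with at least 20 CPM there) and the 3 genes most alike. *Kit*, *Il4ra*, *Il6ra*, *Il6st*, *S100a8*, *S100a9* and *Ctsg* were added after their values were seen. The steps were tested on simulated data. Alternatives were other cell and *Cpa3* limits, scalings and cell subsets. Python 3.11.15, numpy 2.4.6, pandas 2.3.3, scipy 1.17.1 and matplotlib 3.10.9 were used.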

Additional observations from a re-analysis of the deposited data

Results flagged for a closer look

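*Osm*, *Il6* and *Tnfrsf9* had a library ratio that pointed up in female and down in male Cpa3-high cells, by pooled level. By share of cells with a UMI, *Tnfrsf9* did not turn, with overlapping intervals in both sexes (10.0% and 9.23% of female cells). *Osm* was not lower by share in male cells (11.8% and 13.7%). The log2 ratio of YS-Ex to Em-Ex in female cells minus that in male cells was 2.06 for *Osm*, 1.42 for *Il6* and 0.68 for *Tnfrsf9*. These differences were not tested, since each culture gave 1 library.

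Barcodes outside the cell filter, 433 in Em-Ex and 950 in YS-Ex, also held the 7 genes. Their summed level was 170.1 CPM in Em-Ex, against 220.0 CPM within the filter, and 384 CPM in YS-Ex, against 366 CPM within it. The Em-Ex value mixes 353 barcodes with over 5% mitochondrial UMIs at 320 CPM, above the kept cells, with 82 of over 5000 genes at 51.8 CPM. Among Cpa3-high barcodes the removed ones were at 344 CPM against 269 CPM in Em-Ex. *Tnfrsf9* was at 11.5 CPM in the removed YS-Ex barcodes and at 39.3 CPM in those kept, while *Lif* was at 76.2 and 50.1 CPM. In YS-Ex 917 of the removed barcodes had over 5% mitochondrial UMIs.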

How the results depend on the processing

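Of 105 log2 library ratios under alternatives, 56 stayed within the counting interval of the reported value and the others moved beyond it. *Il13*, *Lif* and *Ccl3* kept their direction in 15 of 15 alternatives, *Il6*, *Osm* and *Calca* in 14 of 15 and *Tnfrsf9* in 6 of 15. In female cells the log2 ratios were 0.75 (*Il13*), 0.94 (*Il6*), 1.84 (*Lif*), 1.59 (*Osm*), -0.16 (*Ccl3*), 0.36 (*Tnfrsf9*) and 0.29 (*Calca*), and 28.8% of Em-Ex and 51.7% of YS-Ex cells held 2 or more of the genes. In male cells they were -0.48 (*Il6*) and -0.47 (*Osm*), both against their direction over all cells, 1.22 (*Lif*), -1.58 (*Ccl3*), -0.32 (*Tnfrsf9*) and 1.67 (*Calca*), with 1 gene 2-fold or more lower and shares of 34.9% and 36.2%. With no *Cpa3* limit they were 0.99 (*Il13*), 0.86 (*Il6*), 2.03 (*Lif*), 1.28 (*Osm*), -0.28 (*Ccl3*), 0.25 (*Tnfrsf9*) and 1.30 (*Calca*), with a share of 26.2% in Em-Ex. With a limit of 80 they were 0.39 (*Il13*), 1.34 (*Lif*), 0.86 (*Osm*), -0.65 (*Ccl3*) and -0.020 (*Calca*), with 1 gene 2-fold or more higher and a share of 33.4% in Em-Ex, and with a limit of 20 *Ccl3* was at -0.37. Thinned to 2000 UMIs they were 0.42 (*Il13*), 0.38 (*Il6*), 1.17 (*Lif*), 0.90 (*Osm*), -0.37 (*Ccl3*) and -0.19 (*Tnfrsf9*), with 1 gene 2-fold or more higher, shares of 7.05% and 9.61%, and 4 and 2 pairs at a ratio of 2 or more. As a mean over cells they were 0.41 (*Il13*), 0.34 (*Il6*), 1.29 (*Lif*) and 0.72 (*Osm*). Without the upper 25% by cell cycle UMIs they were 0.37 (*Il13*), 1.28 (*Lif*), 0.72 (*Osm*) and -0.16 (*Tnfrsf9*), with a share of 33.2% in Em-Ex. Without the 1% of cells richest in the gene they were 1.75 (*Lif*), 1.35 (*Osm*), -0.70 (*Ccl3*), -0.42 (*Tnfrsf9*) and 0.54 (*Calca*), and without the 5% deepest cells *Osm* was at 0.87. Without the richest cell of each library, an alternative chosen after seeing the data, *Calca* was at 0.53. With a mitochondrial limit of 10% *Tnfrsf9* was at -0.15, 1 gene was 2-fold or more higher and the YS-Ex share was 42.2%, and over every barcode these were -0.20 for *Tnfrsf9* and 42.0%. The causes were not tested.

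Leaving out barcodes found in both libraries moved none of 69 values beyond its interval. No paired analysis was possible because each culture gave 1 library. With 1 library per culture, no interval covers the spread between cultures, and most positive cells held 1 or 2 UMIs, so shares follow depth.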
